A study of Mus musculus with 6 samples.

Results

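The day 7 library of pancreatic macrophages was compared with the day 5 library, 2 of the 6 libraries of a course after caerulein-induced pancreatitis in mice. Both came from wild-type Balb/c mice given 10 hourly injections of caerulein, harvested 7 or 5 days after the first one. The other 4 libraries, used here only to place these values, were mock (saline, day 0) and days 1, 3 and 4. Day 4 is named by its sample labels and not by the design text. The labels also call the model RAP, an abbreviation they do not spell out. Macrophages were sorted from the pancreas as CD45+CD11b+F4/80+ cells. Each library was 1 pool of more than 3 mice, so no difference has a replicate check, no test between days was possible and no p-value is given. The comparison covers the 10000 genes of highest mean over the 6 libraries, out of 31617. It was made with genes of macrophages kept apart from genes of acinar, stromal and lymphoid cells.

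Caerulein is an analogue of cholecystokinin that overstimulates acinar cells, the enzyme-secreting cells of the pancreas, and injures them. Macrophages clear the debris of such injury, take up its lipid, recruit other leukocytes through chemokines and later accompany the regrowth of acinar tissue. Type I interferon, a signal of infection and tissue damage, switches on a set of antiviral genes in macrophages, and MHC class II proteins let macrophages, dendritic cells and B cells present antigen to T cells.

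The day 7 library held 16358551 reads and the day 5 library 17905449. Levels are normalised read counts, that is, reads scaled by the authors with 1 factor per library. Ratios are log2 ratios of day 7 over day 5 after adding a pseudocount of 17.8 to both, which understates the ratios of low genes. Counting intervals are 95% Clopper-Pearson intervals of the ratio of reads without a pseudocount, and cover counting error only. At least 2-fold higher on day 7 were 507 of the 10000 genes (5.07%), and at least 2-fold lower 468 (4.68%). The median log2 ratio of all 10000 genes was -0.25. This split moved with the scaling of the libraries. It was 839 higher to 145 lower with equal totals, 674 to 237 with the median gene set to 0, 557 to 314 with quantile normalisation, and 900 to 113 with other-cell genes left out and equal totals. These settings moved the median gene by 0.41, 0.25, 0.18 and 0.56. Setting the median of the macrophage core genes to 0 moved it by 1.05 and gave 3380 genes at least 2-fold higher (33.8%) and 36 lower (0.36%).

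**Figure D1:**
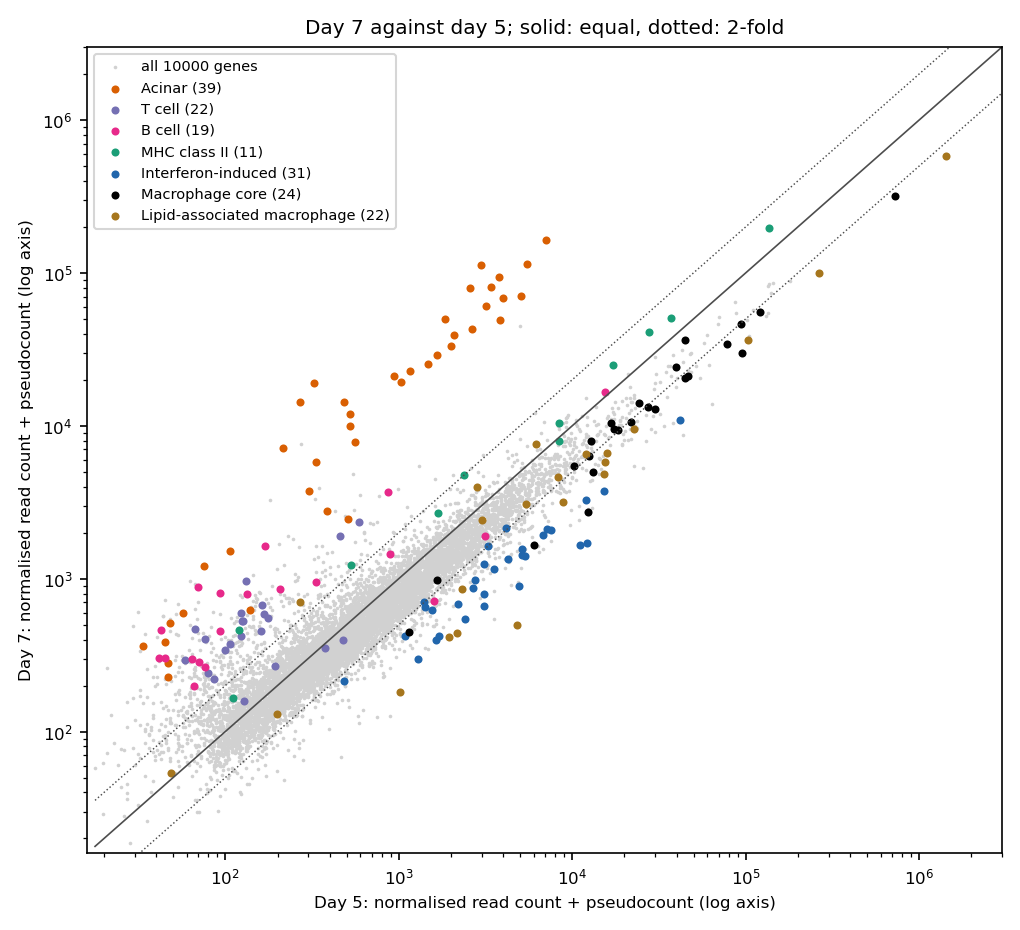
Normalised read count plus pseudocount on day 7 (vertical) against day 5 (horizontal), both on log axes, 1 point a gene and 1 pooled library a side. The 39 acinar genes lie above the upper 2-fold line, 29 of the 31 interferon-induced genes lie below the lower one, and the other lists are coloured as in the key.

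Transcripts of other cells made up a larger part of the day 7 library. The genes of the 22 other-cell lists took 11.0% of its normalised reads, against 1.02% on day 5, and 7.91% in mock and 1.87%, 3.50% and 1.29% on days 1, 3 and 4. Some of these genes, such as Spp1 on the duct list, are also made by macrophages, so the shares are not of other cells alone. Duct genes summed to 147225 and 237876 on days 1 and 3, where all 22 lists summed to 372207 and 634914. On days 5 and 7 duct genes summed to 9051 and 9492. In a sorted bulk sample, fewer cells of a type and less RNA per cell cannot be told apart. These lists supplied 157 of the 507 higher genes and 4 of the 468 lower genes, and held 212 of all 10000 genes. Lists of macrophage genes supplied 48 of the higher and 123 of the lower genes, and held 391 of all 10000. In no list were 300 higher and 337 lower genes, and 9257 of all 10000. Of the higher genes, 273 had their highest value of the 6 libraries on day 7, and of the lower genes 275 had their lowest value there. Of all 10000 genes, 15.1% were highest and 34.7% lowest on day 7. Day 5 was the lowest of the 6 libraries for 139 of the higher genes (27.4%, against 4.37% of all genes). It was the highest for 87 of the lower genes (18.6%), a share near the 18.0% of all genes. The higher and lower genes were chosen by the ratio of these 2 libraries, which itself favours such ranks. Their shares are therefore not directly comparable with those of all genes. The day 7 library had the smallest normalised total, 13816569 against 18621039 on day 5, so ranks that put day 7 lowest also depend on the scaling.

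**Figure D2:**
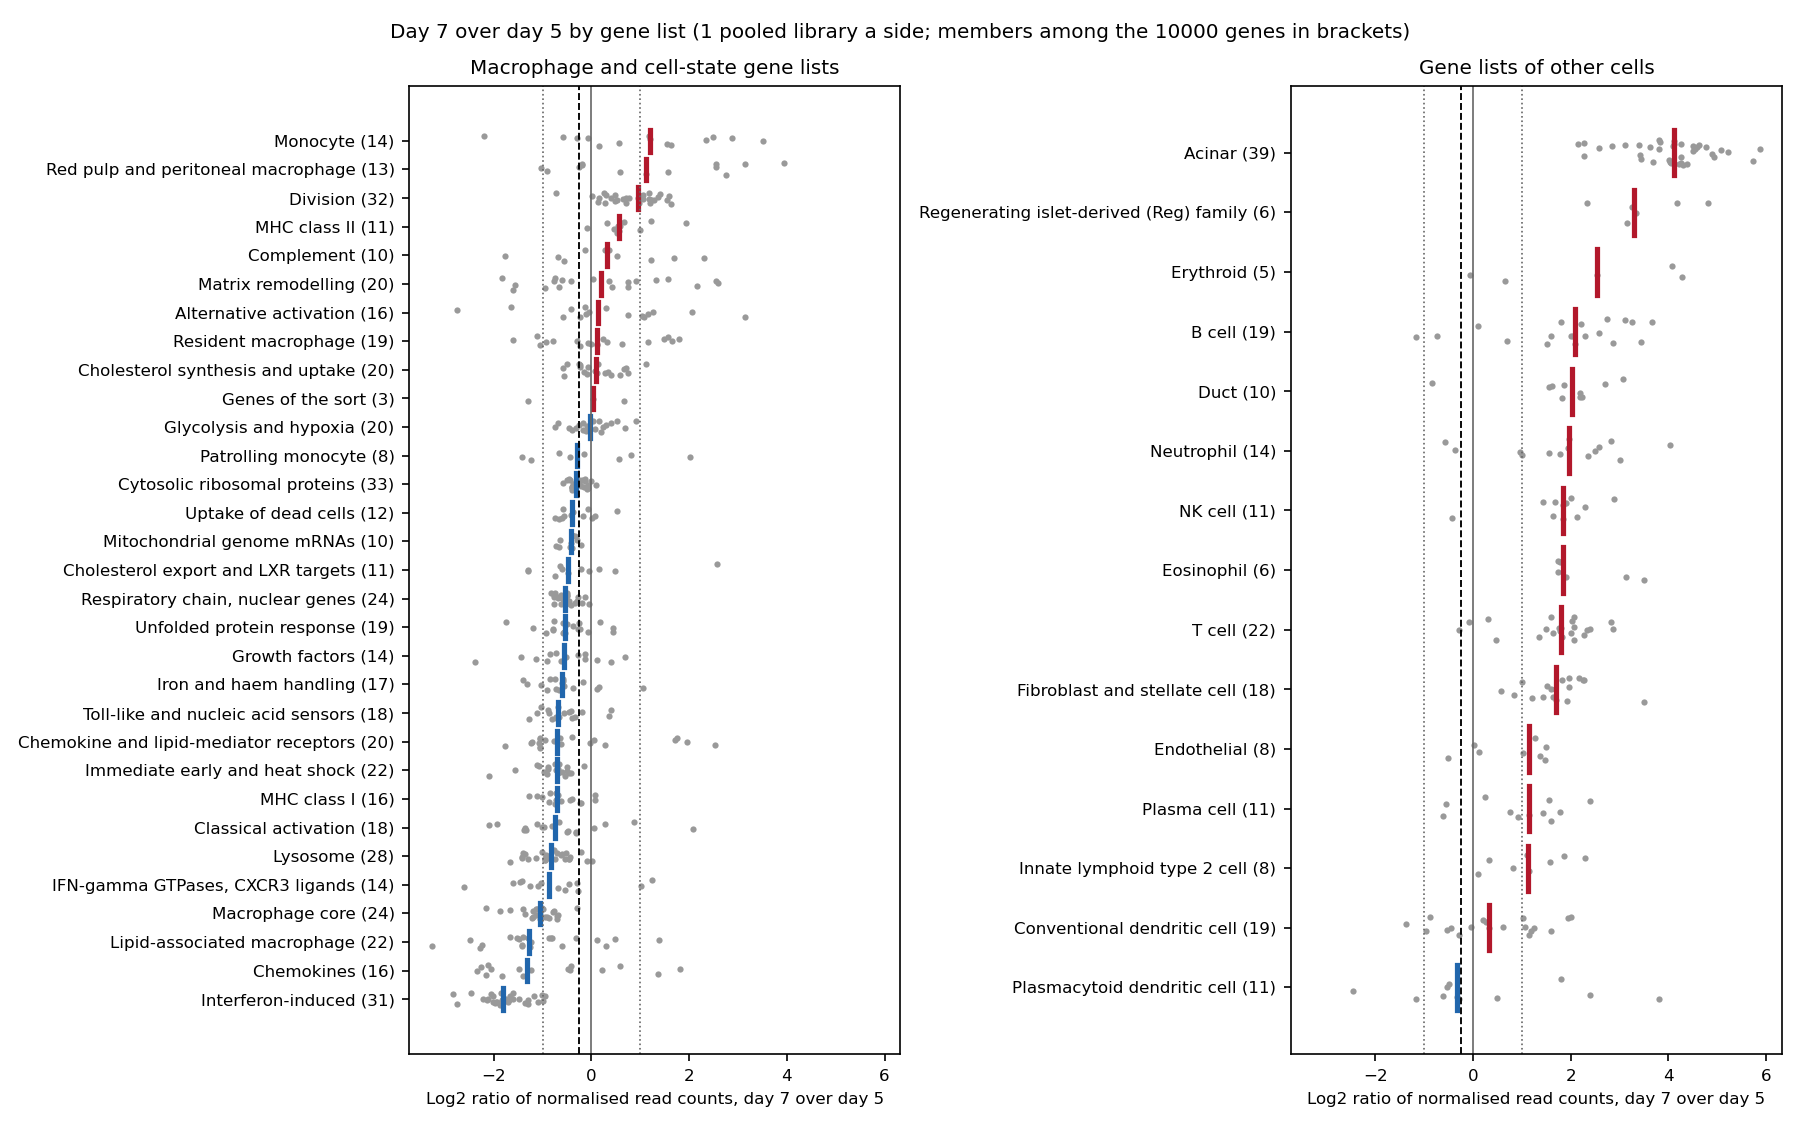
Log2 ratio of day 7 over day 5 for each member of the lists with at least 3 members among the 10000 genes. Grey points are genes, coloured bars list medians (red above 0, blue below), the dashed line the median of all genes (-0.25) and the dotted lines 2-fold. Acinar genes are at the top with a median of 4.11 and interferon-induced genes at the bottom with -1.81.

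The 3 genes of the sort parted. Adgre1, which encodes F4/80, had a normalised read count of 9671 on day 7 and 23702 on day 5 (log2 ratio -1.29, counting interval -1.33 to -1.26). Its day 5 value was the highest of the 6 libraries and its day 7 value the lowest. Ptprc, which encodes CD45 on all leukocytes, had 11553 on day 7 and 11351 on day 5 (log2 ratio 0.03). Itgam, which encodes CD11b, was at 1097 on day 7 and 687 on day 5 (log2 ratio 0.66). All 3 were present in both libraries, and only Adgre1 was past 2-fold as deposited. With centring on the median gene 1 of the 3 was at least 2-fold lower and none higher. With equal totals, also with other-cell genes left out, 1 was higher and none lower. With quantile normalisation none was past 2-fold, and with the core median set to 0, 2 were higher. Over the scalings Adgre1 ranged from -1.30 to -0.24 and Itgam from 0.65 to 1.72.

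Genes that mark macrophages in general were lower on day 7. Of 24 core genes 14 were at least 2-fold lower and none higher (4.68% and 5.07% of all genes), with a median log2 ratio of -1.05 against -0.25 for all genes. With equal totals 3 were at least 2-fold lower (median -0.62), with centring on the median gene 5 (median -0.80), with quantile normalisation 4 (median -0.53), and with other-cell genes left out and equal totals 3 (median -0.47). With TMM factors, as deposited, 14 were. The lowest was Fcgr1, the high-affinity IgG receptor, at 2727 on day 7 and 12289 on day 5 (log2 ratio -2.16). Aif1, an actin-binding protein of macrophages, followed at -1.87, and Ctss, a protease that trims the class II chaperone, at -1.67. These 3 genes are among the 15 core genes whose day 7 value was the lowest of the 6 libraries. Lyz2, lysozyme, had 317968 on day 7 and 729459 on day 5, and the scavenger receptor gene Cd68 had 12933 and 30027 on those days. The efferocytosis receptor gene Mertk was at 430 on day 7 and 1134 on day 5. The complement C1q genes C1qa, C1qb and C1qc differed by -1.20, -1.01 and -1.12. Csf1r, the receptor for the main macrophage growth factor, was nearest to even, at 36504 on day 7 and 44659 on day 5 (log2 ratio -0.29). Together the core genes took 5.04% of the normalised reads on day 7 and 8.15% on day 5. Because the core as a whole was lower, list medians are also given below relative to the core median, a scale that does not depend on the libraries' factors. On that scale the median of all 10000 genes was 0.80, so a list at a smaller value above 0 still lay below the median gene. The part of the other-cell reads in the lower core level was not tested.

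Interferon-induced genes were the lowest of the macrophage lists. Of 31 members 29 were at least 2-fold lower and none higher, with a median log2 ratio of -1.81, which was -0.76 relative to the core and below 0 under each of the 6 other scalings tried. Of the members, 21 to 29 were at least 2-fold lower under these scalings other than the core-centred one. Ifit2, of the family that binds foreign RNA, had 2798 in mock, 19064, 245 and 374 on days 1, 3 and 4, 12171 on day 5 and 1687 on day 7. Its log2 ratio was -2.84 (counting interval -2.92 to -2.78). Its relatives Ifit3 and Ifit1 were at -2.75 and -2.23, but Ifit3 has a near-identical copy, Ifit3b, and reads of such copies, like those of MHC class I genes, may be split in counting, so these values are uncertain. Bst2, tetherin, which holds budding virus at the cell surface, had 883 on day 7 and 4938 on day 5. Rsad2, viperin, was at -2.15, and Isg15, a ubiquitin-like modifier, at -2.05. Irf7, the transcription factor that amplifies interferon production, had 10833 on day 7 and 41923 on day 5, and the GTPase genes Mx1 and Mx2 differed by -2.02 and -2.11. At the weak end stood the signalling gene Stat2 at -0.95, short of 2-fold. Summed over the list, the level was 47926 on day 7 and 179025 on day 5, beside 71475 in mock and 344913, 19635 and 18787 on days 1, 3 and 4. Thus the day 7 sum lay below those of mock, day 1 and day 5 and above those of days 3 and 4. No member had its lowest value on day 7. Relative to the core, 6 members were still at least 2-fold lower, where 0.36% of all genes were.

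Promoters of these genes are known for the interferon-stimulated response element, which the transcription factors downstream of the interferon receptor bind. Its core, TTTC and again TTTC with any 2 bases between, was searched on both strands from 250 bases before to 50 bases after each start site, in RefSeq promoters on GRCm38.p6. It was in 12 of the 21 of these 31 members with a promoter in that table (57.1%). It was in 1079 of all 27025 genes of the promoter set (3.99%) and 308 of the 7658 found among the 10000 genes (4.02%). A gene with several promoters counted once, as a match if any of them held the letters. The letters were not particular to this list. Among members with a promoter they were in 10 of 12 interferon-gamma genes (83.3%), the list described next. They were in 4 of 16 macrophage core genes (25%) and 3 of 14 MHC class I genes (21.4%). Acinar genes held them in 2 of 28 cases (7.14%), lipid-associated genes in 1 of 15 (6.67%) and lysosome genes in 0 of 21. Of genes at least 2-fold lower on day 7 they were in 48 of 342 (14%), and of genes at least 2-fold higher in 14 of 368 (3.80%). A match describes these letters and is not a site of binding, and Ifit2, the lowest of the 31 interferon-induced members, had none in this window. Windows of 60 bases from the 5 members with the lowest ratios among those that hold the letters are shown, because they let the element be seen beside the genes that differed most. Each is on its gene's own strand, 5′ to 3′, with matches in capitals, which may overlap one another or read on either strand. They lie at chr19:34583365-34583424 (plus, Ifit3), chr8:71537565-71537624 (minus, Bst2), chr19:34640769-34640828 (plus, Ifit1), chr12:26456538-26456597 (minus, Rsad2) and chr4:156200856-156200915 (minus, Isg15).
Ifit3: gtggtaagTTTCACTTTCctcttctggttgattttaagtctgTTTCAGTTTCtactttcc
Bst2: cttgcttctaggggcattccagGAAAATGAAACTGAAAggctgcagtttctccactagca
Ifit1: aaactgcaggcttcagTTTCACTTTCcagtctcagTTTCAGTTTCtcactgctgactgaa
Rsad2: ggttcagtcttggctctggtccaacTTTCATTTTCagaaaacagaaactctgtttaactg
Isg15: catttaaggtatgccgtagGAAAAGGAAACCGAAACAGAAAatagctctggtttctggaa
In Ifit3, Ifit1 and Rsad2 the letters read forward, and in Bst2 and Isg15 they read in reverse. Isg15 held 3 overlapping matches, Ifit3, Bst2 and Ifit1 2 each and Rsad2 1. Counted from the start site, the first match began at -156, -130, -104, -120 and -78 in Ifit3, Bst2, Ifit1, Rsad2 and Isg15.

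Genes that answer interferon-gamma parted from one another. Of 14 such genes 7 were at least 2-fold lower and 2 higher, with a median of -0.86 that was 0.19 relative to the core. Cxcl10, a ligand that draws T cells through CXCR3, had 106 on day 7 and 735 on day 5 (log2 ratio -2.60, counting interval -3.07 to -2.51). The immunity-related GTPase genes Irgm1, Ifi47 and Igtp were at -1.46, -1.42 and -1.26. The guanylate-binding protein gene Gbp4 went the other way, at 1182 on day 7 and 577 on day 5, while its relatives Gbp2 and Gbp7 were at -0.28 and -0.29. MHC class I genes had 3 of 16 members at least 2-fold lower and none higher (median -0.71, but 0.35 relative to the core). B2m, the light chain of class I, was at 24997 on day 7 and 61023 on day 5, the heavy chain gene H2-K1 at -0.74 and the peptide transporter genes Tap1 and Tap2 at -0.22 and 0.08. In 10 of the 16 the day 5 value was the highest of the 6 libraries, as in 18.0% of all genes.

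Chemokines, the secreted proteins that draw leukocytes, were mostly lower on day 7. Of 16 chemokines 9 were at least 2-fold lower and 2 higher (median -1.32, -0.26 relative to the core, below 0 under the 6 other scalings, with 5 to 9 members at least 2-fold lower). Ccl2, the main ligand of the monocyte receptor CCR2, had 2897 on day 7 and 12978 on day 5. Ccl7 and Ccl12, which act on the same receptor, were at -2.11 and -2.34, and Ccl3 and Ccl4, which draw monocytes and T cells, at -2.06 and -2.27. Each of these 5 genes was at its lowest of the 6 libraries on day 7. Cxcl1 and Cxcl2, which draw neutrophils, differed by -1.40 and -1.48. Higher were Cxcl12, made mainly by stromal cells, at 213 on day 7 and 47.8 on day 5, and Cxcl13, which draws B cells, at 186 and 61.4 on those days. Ccl5, counted with classical activation and made by T and NK cells too, was at 1048 on day 7 and 235 on day 5. Its log2 ratio of 2.08 stood among T cell and NK cell lists with medians of 1.81 and 1.85, whose part in it was not tested.

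Of the 18 classical activation genes 7 were at least 2-fold lower and 1, Ccl5, higher (median -0.74, but 0.31 relative to the core). Tnf, the inflammatory cytokine, had 808 on day 7 and 3501 on day 5 (log2 ratio -2.09). Il1a was at 86.2 on day 7 and 381 on day 5, and Il1b at 4602 and 8103 on those days. Nfkbia and Nfkbiz, both targets and regulators of NF-kappaB, differed by -1.33 and -1.36. The inflammasome gene Nlrp3 and the co-stimulator gene Cd40 were at -1.01 and -1.12. Against these, Socs3, a brake on cytokine signalling, was near even at 11259 on day 7 and 9243 on day 5. Of 22 immediate early and heat shock genes, 4 were at least 2-fold lower and none higher (median -0.70, but 0.35 relative to the core). Ier3 was the lowest of them at -2.10, Atf3, a stress-induced repressor, at -1.57, and Fos and Jun at -0.74 and -0.60. The other members past 2-fold were Klf6, a zinc finger factor, at -1.11 and the chaperone gene Hsp90aa1 at -1.07.

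Genes of lipid-laden macrophages, the state linked to uptake of dead cells and their fat, were also low. Of 22 members 13 were at least 2-fold lower and 1 higher (median -1.27, -0.22 relative to the core, below 0 under the 6 other scalings, with 4 to 13 members at least 2-fold lower). Gpnmb, a glycoprotein of lysosome-stressed macrophages, had 318 in mock, 4614, 4159 and 8911 on days 1, 3 and 4, 4817 on day 5 and 483 on day 7. With a log2 ratio of -3.27 (counting interval -3.45 to -3.19) it was the lowest of the genes ranked. That ranking left out predicted genes, small RNAs, pseudogenes and receptor segments. Fabp5, a fatty acid carrier, had 163 on day 7 and 998 on day 5, and Syngr1, a vesicle membrane protein, 395 and 1929 on those days. Trem2, the lipid-sensing receptor of this state, was at 3135 on day 7 and 8772 on day 5. The cholesterol exporters Abcg1 and Abca1 were at -2.29 and -1.42 and the lipid droplet coat gene Plin2 at -1.24. Apoe, the lipoprotein that carries exported cholesterol, had 577517 on day 7 and 1420534 on day 5 (log2 ratio -1.30). Day 7 was the lowest of the 6 libraries for 10 of the 22, and day 5 the highest for 1. Relative to the core 4 members, Gpnmb, Fabp5, Abcg1 and Syngr1, were at least 2-fold lower, where 0.36% of all genes were. Members on the other side were Mmp12, a macrophage elastase, at 682 on day 7 and 251 on day 5, Cd36, a scavenger receptor, at 0.49, and Lpl, lipoprotein lipase, at 0.31.

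**Figure D3:**
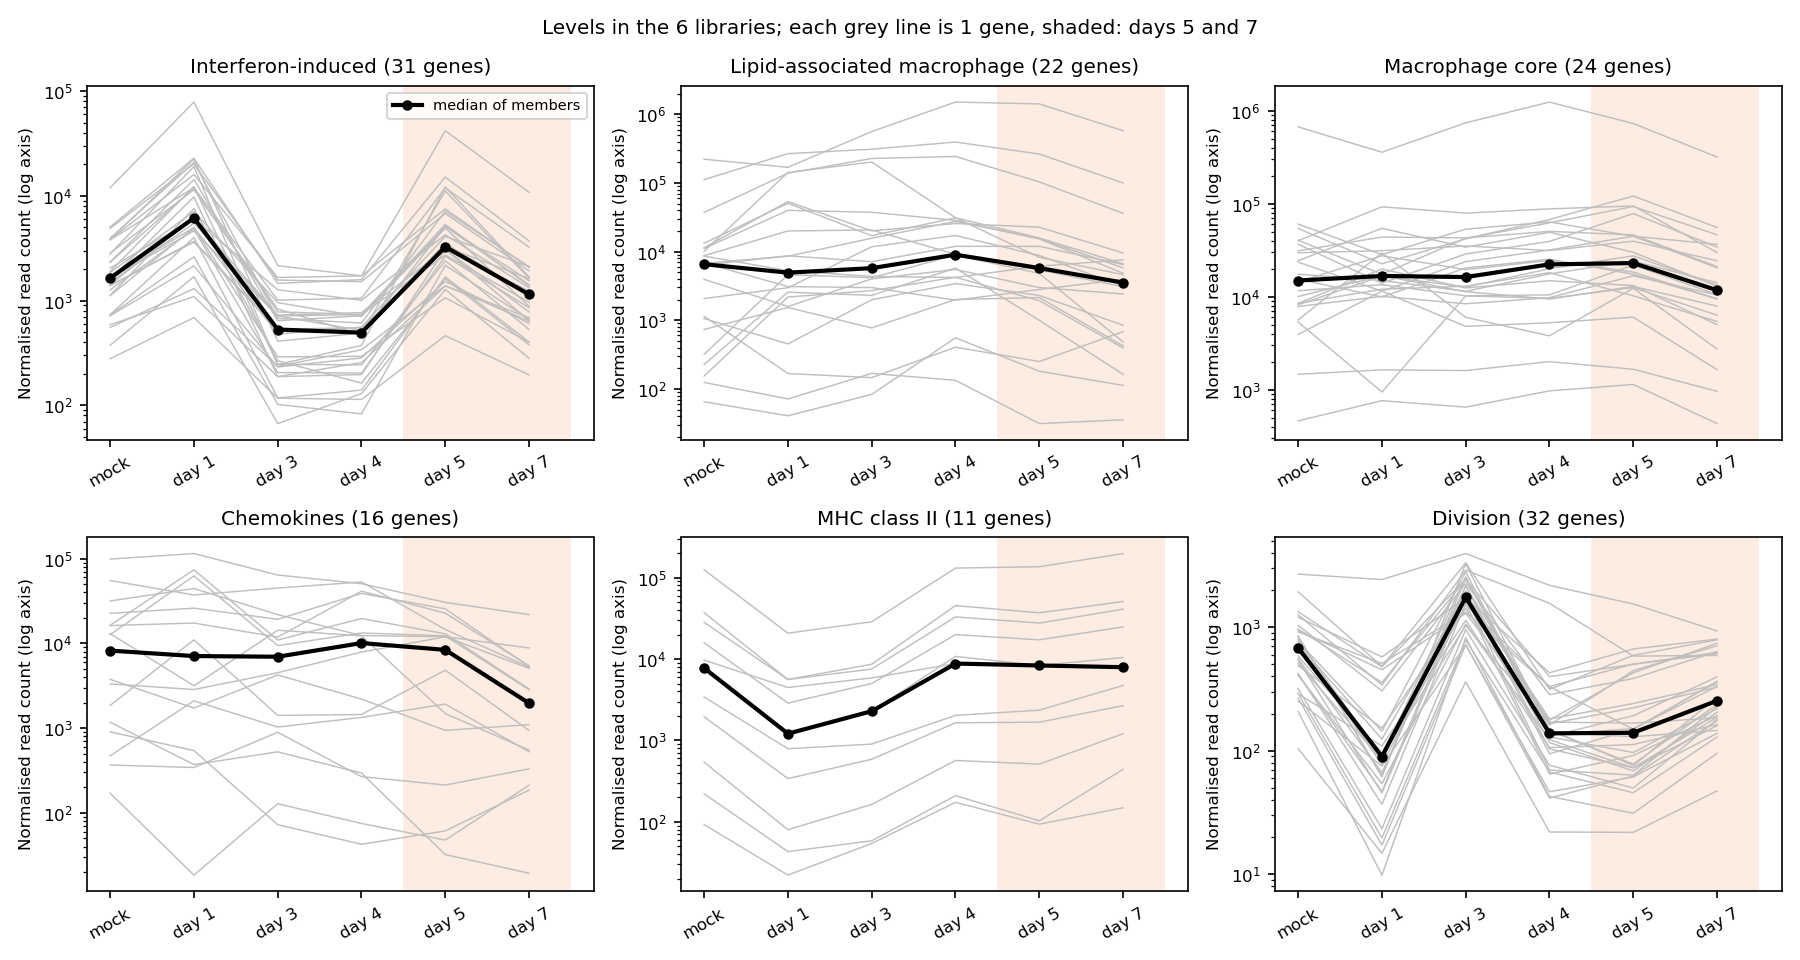
Normalised read count (log axis) of each member of 6 lists in the 6 libraries, in order of day. Grey lines are genes, the black line their median, and the shaded band marks days 5 and 7. Interferon-induced genes peak on days 1 and 5, lipid-associated genes are highest on day 4 and lower on day 7, and division genes peak on day 3.

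Lysosome genes were lower as well, though about as much as the core. Of 28 members 8 were at least 2-fold lower and none higher (median -0.83, but 0.22 relative to the core), where 4.68% of all genes were lower. With equal totals 1 was lower, with centring on the median gene 6 and with quantile normalisation 3. With other-cell genes left out and equal totals 1 was lower. Grn, progranulin, was at 38901 on day 7 and 104319 on day 5. The protease genes Ctsz and Lgmn differed by -1.42 and -1.39 and the cholesterol-shuttling Npc2 by -1.36. Psap, which makes the saposins, was nearer to even at -0.44, and Gaa, the glycogen-degrading enzyme, was even at 0.02. Known targets of the factor TFEB carry the letters TCACGTGA in their promoters. They were in 4 of 21 lysosome genes with a promoter in the RefSeq table (19.0%), against 187 of the 7658 found among the 10000 genes (2.44%) and 304 of all 27025 (1.12%). Of the genes at least 2-fold lower on day 7 they were in 12 of 342 (3.51%), and of those higher in 4 of 368 (1.09%).

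MHC class II genes were higher or near even on day 7. Of 11 members 3 were at least 2-fold higher and none lower, with a median log2 ratio of 0.57, which was 1.62 relative to the core and above 0 under the 6 other scalings. Cd74, the class II chaperone, had 124549 in mock, 20774, 28677 and 130870 on days 1, 3 and 4, 136059 on day 5 and 197319 on day 7. H2-Ab1 and H2-Eb1, both class II chains, had 24781 and 41021 on day 7 and 17203 and 27615 on day 5. Day 7 was the highest of the 6 libraries in 8 of the 11 genes. Ciita, the master regulator of class II transcription, was at 1207 on day 7 and 512 on day 5 (log2 ratio 1.21, counting interval 1.09 to 1.39). H2-Ob, which tunes peptide loading in B cells and dendritic cells, led at 441 and 103 on those days. H2-DMa, part of the peptide-loading complex, was the only member below 0, at -0.08. Relative to the core 10 of the 11 were at least 2-fold higher, where 33.8% of all genes were. Genes of other cells that carry class II were higher beside them: 15 of 19 B cell genes were at least 2-fold higher, with a summed level of 32844 on day 7 and 23194 on day 5. Conventional dendritic cell genes had 8 of 19 higher and 1 lower, with a sum of 29291 on day 7 and 29557 on day 5. Their part in the class II difference was not tested.

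Dendritic cell genes ranged widely. Cd209a, a lectin of monocyte-derived and type 2 dendritic cells, had 3814 on day 7 and 973 on day 5. Itgax, which encodes CD11c, was at 1.60, and Zbtb46, a transcription factor of the lineage, at 1.07. Ccr7, the receptor for migration to lymph nodes that naive T cells also carry, had 2343 on day 7 and 571 on day 5. The type 1 subset markers Xcr1, Batf3 and Irf8 were at -0.45, -0.30 and -0.52. Relative to the core they were at 0.61, 0.76 and 0.53, where the median gene was at 0.80. Plasmacytoid dendritic cell genes had 3 of 11 higher and 2 lower. Their median of -0.33 turned to 0.72 relative to the core, which was also below the median gene. Their defining gene Siglech was at 352 on day 7 and 500 on day 5. The highest of that list was the kallikrein gene Klk1 at 3.80, beside a median of 4.11 for the acinar list. The part of acinar transcripts in its value was not tested.

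Alternative activation genes were spread widely. Of 16 members 6 were at least 2-fold higher and 2 lower, with a median of 0.13, but -0.12 without members that another list holds. Alox15, a lipoxygenase of peritoneal macrophages and eosinophils, had 4786 on day 7 and 528 on day 5 (log2 ratio 3.14). Mgl2, a lectin of macrophages and dendritic cells, had 5480 on day 7 and 1298 on day 5, and Retnla, induced by interleukin 4, had 6402 and 3041 on those days. The arginase gene Arg1 was at 278 on day 7 and 115 on day 5, in both libraries far below the 4691 of mock. Il10, the anti-inflammatory cytokine, went the other way with 50.7 on day 7 and 446 on day 5 (log2 ratio -2.76), and the transcription factor Egr2 was at -1.65. The mannose receptor gene Mrc1, often used for this state, was even at 8772 on day 7 and 8859 on day 5. Alox15 is also on the eosinophil list, whose 6 members were all at least 2-fold higher, and the part of eosinophil transcripts in its value was not tested.

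Genes of resident macrophages parted in both directions. Of 19 members 5 were at least 2-fold higher and 3 lower (median 0.11, but -0.08 among the 6000 highest genes and -0.01 without members that another list holds). Timd4, the phosphatidylserine receptor of long-lived macrophages, had 1234 on day 7 and 546 on day 5, and Lyve1, the hyaluronan receptor, had 1779 and 621 on those days. Both stayed below their mock levels of 2704 and 6005. Cd209b and Cd209d, lectins of tissue macrophages, were at 1.57 and 1.64. Siglec1, the sialic acid receptor that interferon induces, was at 3720 on day 7 and 8030 on day 5, Sepp1, for the plasma selenium carrier, at -1.06 and the folate receptor gene Folr2 at -0.93. Cd163, the haemoglobin scavenger receptor, was near even at 0.23. Endothelial genes, a list that holds Lyve1, had 5 of 8 members higher, with a sum of 3503 on day 7 and 1662 on day 5.

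Genes known from peritoneal and red pulp macrophages were higher in 7 of 13 cases and lower in 1 (median 1.11, but 0.59 without members that another list holds). Prg4, lubricin, had 621 in mock, 51.7, 31.0 and 42.7 on days 1, 3 and 4, 44.7 on day 5 and 947 on day 7 (log2 ratio 3.95). Saa3, an acute phase protein, had 3490 on day 7 and 581 on day 5, and Selp, P-selectin, which peritoneal macrophages, platelets and endothelium make, 251 and 21.8 on those days. Serpinb2, an inhibitor of plasminogen activators, was at 2.55, and Fcna, a ficolin, at 2536 on day 7 and 1164 on day 5. Prg4 and Fcna were at their highest of the 6 libraries on day 7, whereas Saa3 and Serpinb2 were below their mock levels of 15380 and 2897.

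Genes of monocytes were higher on day 7 in 8 of 14 cases and lower in 1 (median 1.19, 2.25 relative to the core). Their summed level was nonetheless even, at 30972 on day 7 and 30902 on day 5. It was 64427 in mock and 205352, 60222 and 26204 on days 1, 3 and 4. Fn1, fibronectin, had 3916 on day 7 and 328 on day 5 (log2 ratio 3.51), and Hp, haptoglobin, 1789 and 228 on those days. The surface marker gene Ly6c2 had 782 on day 7 and 336 on day 5, against 37117 on day 1. Ccr2, the receptor for Ccl2, was even at 13159 on day 7 and 13771 on day 5. The interferon-responsive Ms4a4c was the member that was lower, at 2384 on day 7 and 10980 on day 5. Neutrophil genes, some of which monocytes also make, were higher in 10 of 14 cases beside them, and fibroblasts make Fn1 too. Their part was not tested.

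Genes of cell division were higher on day 7 in 13 of 32 cases and lower in none (median 0.96, 2.01 relative to the core). The cyclin genes Ccnb2 and Ccna2 had 271 and 227 on day 7 and 75.9 and 63.4 on day 5. Mki67, the proliferation antigen Ki-67, was at 361 on day 7 and 150 on day 5, and Top2a, which untangles replicated DNA, at 365 and 150 on those days. In all 4 genes the day 7 value was below that of mock and of day 3. The replication helicase genes Mcm2 to Mcm7 lay between 0.26 and 0.77, the thymidine kinase gene Tk1 at 1.05 and the mitotic kinase genes Aurka, Aurkb and Cdk1 at 0.47, 0.48 and 0.13. Only Pcna, the polymerase clamp, was below 0, at -0.72. T and B cells, acinar cells and fibroblasts can divide too, and the part of their higher transcripts in this list was not tested.

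Genes used by nearly every cell were close to the median gene. Of 33 ribosomal protein genes, 24 nuclear respiratory chain genes, 10 mRNAs of the mitochondrial genome and 20 glycolysis genes none was past 2-fold. Their medians were -0.32, -0.53, -0.41 and -0.04, and each turned above 0 under at least 1 other scaling. Day 7 was the lowest of the 6 libraries in all 24 respiratory chain genes, all 10 mitochondrial mRNAs and 31 of the ribosomal protein genes. As shares of the normalised total, ribosomal protein genes took 0.423% on day 7 and 0.376% on day 5, the mitochondrial mRNAs 0.132% and 0.141% and the respiratory chain genes 0.340% and 0.342%. By share, the ribosomal protein genes were thus higher on day 7 than on day 5. For the unfolded protein response 2 of 19 genes were lower and none higher (median -0.55, but 0.50 relative to the core), Ddit3, a stress-induced transcription factor, at -1.75 and the chaperone gene Hspa5 at -1.19. Cholesterol synthesis genes were near even (median 0.10), with 1 of 20 higher and none lower.

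Among the smaller macrophage lists, growth factors had 3 of 14 members lower and none higher (median -0.56, but 0.49 relative to the core), led by the stress cytokine Gdf15 at 95.4 on day 7 and 570 on day 5. Matrix remodelling genes had 5 of 20 higher and 3 lower (median 0.19, but -0.42 without members that another list holds). The collagenase gene Mmp13 was at 58.3 on day 7 and 212 on day 5, and Mmp2, a gelatinase of fibroblasts, at 648 on day 7 and 131 on day 5. Complement genes had 3 of 10 higher and 1 lower (median 0.32), with the anaphylatoxin receptor gene C3ar1 at 9927 on day 7 and 33725 on day 5 and C4b at 4772 and 2038 on those days. Iron and haem genes had 3 of 17 lower and 1 higher (median -0.61, but 0.44 relative to the core). The ferritin genes Fth1 and Ftl1 were at -1.32 and -1.03 while the iron exporter gene Slc40a1 was at 750 on day 7 and 352 on day 5. Receptors for chemokines and lipid mediators had 8 of 20 lower and 4 higher (median -0.70, but 0.35 relative to the core). With equal totals 1 was lower, with centring on the median gene 1 and with quantile normalisation 2, each with 4 higher. With other-cell genes left out and equal totals 1 of 18 was lower and 2 were higher. The formyl peptide receptor genes Fpr1 and Fpr2 were at -1.22 and -1.76, whereas Ltb4r1, the leukotriene B4 receptor, was at 1143 on day 7 and 182 on day 5. Toll-like and nucleic acid sensors had 3 of 18 lower and none higher (median -0.67, but 0.38 relative to the core), genes for uptake of dead cells none of 12 past 2-fold (median -0.40, but 0.65). Cholesterol export genes had 2 of 11 lower and 1 higher (median -0.48, but 0.58), and patrolling monocyte genes 2 of 8 lower and 1 higher (median -0.30, but 0.76).

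Acinar genes showed the widest difference. Of 45 acinar genes found, 39 were among the 10000, and each of these was at least 2-fold higher on day 7, with log2 ratios of 2.15 to 5.87 and a median of 4.11. Their summed level was 1282522 on day 7 and 60575 on day 5, a ratio of 21.2, which was 9.28% and 0.325% of the normalised reads of those libraries. It was 1087218 in mock and 102042, 221803 and 81247 on days 1, 3 and 4. Day 7 thus lay above mock, and day 5 was the lowest of the 6 libraries. None of the 45 genes was at 0 reads in either library. Because a gene enters the 10000 through its mean over the 6 libraries, day 7 included, counts over the members that entered favour genes that were high somewhere, and this holds for every list of cells that are scarce here. Pnlip, pancreatic lipase, had 119710 in mock, 7811, 5077 and 1854 on days 1, 3 and 4, 2970 on day 5 and 111895 on day 7. Cela1, an elastase, had 93627 on day 7 and 3785 on day 5, and Cpa1, a carboxypeptidase, 49900 and 1822 on those days. Gp2, the main membrane glycoprotein of the enzyme granules, was at 14330 on day 7 and 253 on day 5. Dmbt1, a secreted scavenger glycoprotein, led the same ranking of genes with 19061 on day 7 and 309 on day 5 (log2 ratio 5.87, counting interval 5.78 to 6.12). The trypsinogen genes Prss2, Prss1 and Try5 were at 4.58, 2.27 and 3.68, but near-identical trypsinogens may share reads, so these values are uncertain. The list was not made of enzyme mRNAs alone. Rbpjl and Bhlha15, transcription factors of mature acinar cells, had 262 and 345 on day 7 and 29.1 and 15.6 on day 5.

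The Reg genes, secreted proteins that acinar cells make under injury, were higher in 6 of 6 cases (median 3.29). Reg2 was at 7593 on day 7 and 255 on day 5, Reg1 at 44593 and 4980, and Reg3b, a bactericidal lectin, at 3300 and 310. On day 7 Reg3b stayed below its mock level of 9784, and Reg3g, at 186, below its mock level of 1847. All 6 Reg genes had their lowest value of the 6 libraries on day 5. The Reg genes are close paralogs, so their values are uncertain too. Duct genes were higher in 9 of 10 cases (median 2.03), with Muc1 at 417 on day 7 and 34.3 on day 5 and the keratin genes Krt8 and Krt18 at 2.19 and 2.24. The exception was Spp1, osteopontin, which macrophages also make, at -0.84. Of 20 islet genes found only the glucagon gene Gcg was among the 10000 genes, at 15.2 on day 7 and 13.5 on day 5. Of those 20, 3 had no reads on day 7 and 5 none on day 5.

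**Figure D4:**
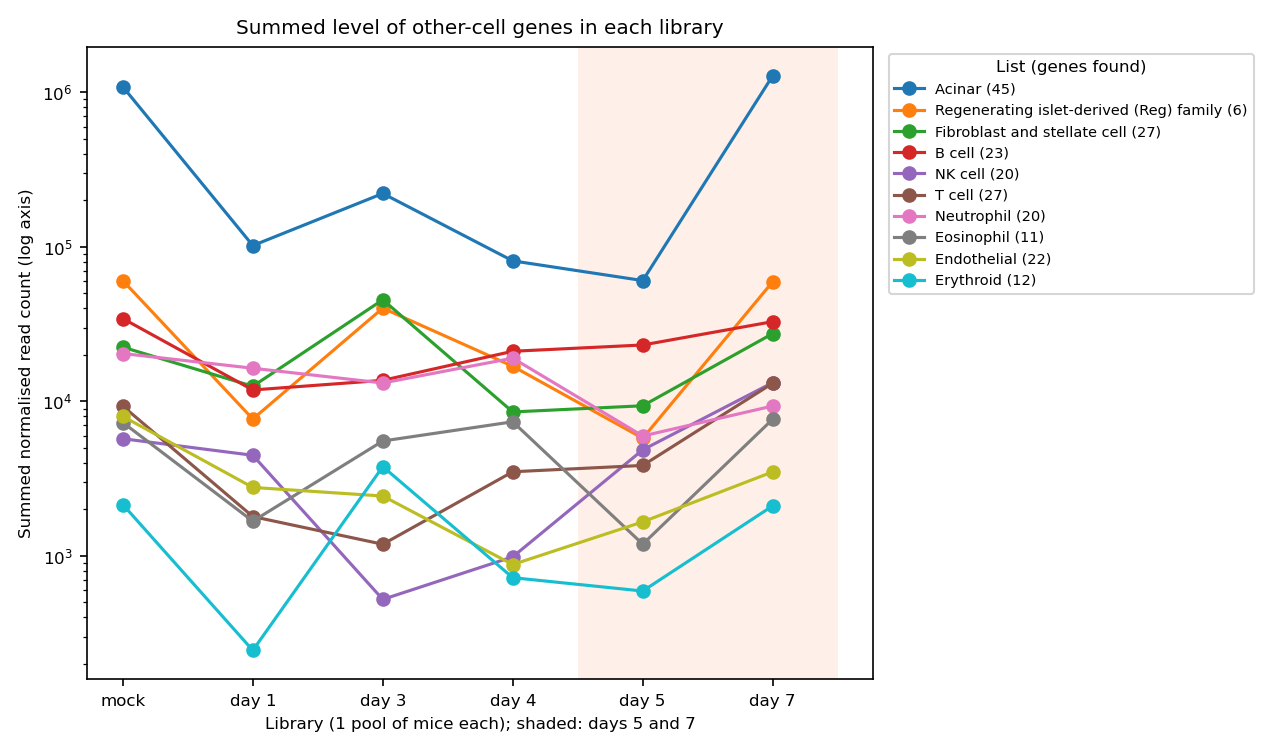
Summed normalised read count (log axis) of all genes found of 10 other-cell lists in the 6 libraries, in order of day, 1 pool of mice each, with days 5 and 7 shaded. The 10 lists were chosen from the 22 after their values were seen, and each is higher on day 7 than on day 5, whereas the sums of plasma cell, conventional and plasmacytoid dendritic cell, mast cell and basophil, and nerve and Schwann cell genes, not drawn, were lower on day 7. Acinar genes reach 1282522 on day 7 and 60575 on day 5.

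Genes of fibroblasts and stellate cells, which lay down collagen after injury, were higher in 15 of 18 cases and lower in none (median 1.69). Col1a1 and Col3a1, collagen chains, had 721 and 3443 on day 7 and 135 and 751 on day 5. Dcn, the proteoglycan decorin, was at 2268 on day 7 and 695 on day 5, and Pi16, a marker of adventitial fibroblasts, at 262 and 40.6. The summed level was 27490 on day 7 and 9375 on day 5, and 45500 on day 3, so both collagen genes were below their day 3 values of 2512 and 7376. Among endothelial genes Pecam1 was at 296 on day 7 and 104 on day 5 and Plvap at 257 and 81.1, while Kdr, a vascular growth factor receptor, was at -0.52. Smooth muscle genes were scarce: of 15 found only Acta2 was among the 10000, at 25.3 on day 7 and 7.28 on day 5. Both mesothelial genes of 11 found that were among the 10000, Krt19 and Slpi, were higher on day 7, at 1.87 and 2.67. Krt19 is also a duct marker, and the mesothelial markers Msln and Upk3b were not among the 10000. The part of other cells in these values was not tested.

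T cell genes were higher on day 7 in 18 of 22 cases and lower in none (median 1.81). Cd3e, a chain of the T cell receptor complex, had 399 in mock, 66.5, 53.5 and 91.9 on days 1, 3 and 4, 108 on day 5 and 508 on day 7. Tcf7 and Lef1, transcription factors of naive and memory T cells, led with 943 and 452 on day 7 and 113 and 48.9 on day 5. Lck, the kinase of the receptor complex, had 1897 on day 7 and 442 on day 5. Cd4, which some macrophages carry, was at 378 on day 7 and 462 on day 5, and Cd8b1 at 253 and 177. In 18 of the 22 genes day 7 was the highest of the 6 libraries. Type 2 innate lymphoid cell genes had 5 of 8 higher and none lower (median 1.13), with Gata3, which T cells share, at 351 on day 7 and 106 on day 5, and the interleukin 33 receptor gene Il1rl1 at 637 and 163.

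NK cell genes were higher in 10 of 11 cases and lower in none (median 1.85). Prf1, perforin, had 1041 on day 7 and 126 on day 5 (log2 ratio 2.88), and Gzma, a granule protease, 1617 and 317. The lineage-defining genes Ncr1 and Eomes were at 1470 and 476 on day 7 and 395 and 120 on day 5. The exception was Klrk1, the receptor NKG2D, at 1476 on day 7 and 1982 on day 5. Day 7 was the highest of the 6 libraries in 9 of the 11 genes.

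B cell genes were higher in 15 of 19 cases and lower in 1 (median 2.09). Cd79a, the signalling chain of the antigen receptor, had 2020 in mock, 598, 51.4 and 99.6 on days 1, 3 and 4, 152 on day 5 and 1610 on day 7 (log2 ratio 3.26, counting interval 3.16 to 3.66). Fcer2a and Ms4a1, both of mature B cells, were at 3.44 and 2.57. Ighm, the IgM heavy chain, was nearly even at 16676 on day 7 and 15423 on day 5. Cd22 was the member that was lower, at 696 on day 7 and 1577 on day 5. Plasma cell genes had 6 of 11 higher and none lower (median 1.14), although Xbp1 and Prdm1, which macrophages also make, were at -0.55 and -0.61. Among the 6000 highest genes the plasma cell median was -0.55.

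Granulocyte genes were higher on day 7 too. Neutrophil genes had 10 of 14 higher and none lower (median 1.96), with Ngp, a granule protein, at 710 on day 7 and 27.0 on day 5, Ltf, lactoferrin, at 409 and 35.4, and S100a9 at 532 and 90.5. Csf3r, the receptor for the neutrophil growth factor, which macrophages also make, was at -0.38. For 9 of the 14 the day 5 value was the lowest of the 6 libraries, and the summed level was 9343 on day 7, 5974 on day 5 and 20423 in mock. All 6 eosinophil genes were higher (median 1.85), with Ear2, a ribonuclease, at 573 on day 7 and 34.3 on day 5, Siglecf at 443 and 105 and the chemokine receptor gene Ccr3 at 606 and 168. Erythroid genes had 3 of 5 higher and none lower (median 2.54), the haemoglobin genes Hbb-bs and Hba-a1 at 585 and 475 on day 7 and 13.5 and 11.4 on day 5. Haemoglobin genes are near-identical copies, and their values are uncertain. Few mast cell and basophil, platelet, adipocyte, and nerve and Schwann cell genes were among the 10000, with 2, 1, 2 and 2 members. Of these only Hdc, the histamine-making enzyme, was past 2-fold, at 314 on day 7 and 89.4 on day 5.

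Among genes in none of the other-cell lists, several with the highest ratios followed the acinar course, low on day 5 and near or above mock on day 7. Cckar, the cholecystokinin receptor through which caerulein acts, had 350 in mock, 67.7, 299 and 97.0 on days 1, 3 and 4, 35.4 on day 5 and 667 on day 7 (log2 ratio 3.69, counting interval 3.74 to 4.78). Vtn, vitronectin, was at 910 on day 7 and 48.9 on day 5, and Gal, galanin, at 552 and 26.0. Slc39a5, a zinc transporter, had 417 on day 7 and 16.6 on day 5, Atp2a3, a calcium pump of the endoplasmic reticulum, 1876 and 213, and Cbs, an enzyme of sulphur amino acid metabolism, 378 and 28.1. Of another kind were Cd177, a neutrophil surface protein, at 318 on day 7 and 14.6 on day 5, and Lrg1, a secreted glycoprotein, at 690 and 52.0. Nid1, a basement membrane protein, was at 764 on day 7 and 104 on day 5. These genes are on no other-cell list, so the 350 higher genes outside those lists still hold genes with such courses. At the low end of the same ranking, the genes in neither the interferon nor the lipid list included Ms4a7, a membrane protein of macrophages, at 8671 on day 7 and 43214 on day 5. Ly6e, an interferon-induced surface protein that is on no list here, had 13813 on day 7 and 63938 on day 5.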

How the data were processed

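RNA from sorted pancreatic macrophages was measured in 6 libraries, 1 pool of more than 3 mice each, and days 7 and 5 were compared. The deposited values are a normalised count signal per gene, made by the authors by dividing read counts by 1 size factor per library. Every value was a whole number of reads within 0.01 reads (100% of values), with 1 read worth 0.845 on day 7 and 1.04 on day 5. Bowtie 0.12.2 and the build mm8 are named, per the submitters' processing notes; the sources used here name no read counter and no gene models. Depth ranged from 14853084 to 25726455 reads per library, and 3 reads, the limit that a count of 0 allows, correspond to 2.53 on day 7 and 3.12 on day 5. Intervals and this limit cover counting error only; the median half-width of the interval was 0.18 on the log2 scale.

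The log2 ratio of day 7 over day 5, with a pseudocount of 17.8, was computed for the 10000 genes of highest mean (lowest mean 74.1), and genes past 2-fold were counted. No count test was possible, since 1 library a day leaves 0 residual degrees of freedom. Genes were grouped in 53 lists, 24 of macrophages, 7 of cell states and 22 of other cells. The members and lists were chosen with earlier results of these data known. Named by rule were the genes of the sort, the 20 genes of highest and the 20 of lowest ratio, the same outside the other-cell lists, at most 6 members per list, by absolute ratio, and members that define a list's name; predicted genes, small RNAs, pseudogenes and receptor segments were left out. The text takes its genes from these and adds further list members chosen after their values were seen. Where a symbol had several rows, the row of higher mean was used. Promoter letters were searched in RefSeq sequences on GRCm38.p6, matched by symbol. The calculation was tested on simulated data. Other scalings, pseudocounts, filters, fold limits and lists without shared genes were tried. Tools were R 4.3.3 with edgeR 4.0.16 (TMM factors only), and Python 3.11.15 with matplotlib 3.10.9, scipy 1.17.1, pandas 2.3.3 and numpy 2.4.6. A few genes are not reported here.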

Additional observations from a re-analysis of the deposited data

How the results depend on the processing

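With 507 genes at least 2-fold higher on day 7 and 468 lower as deposited, equal totals gave 839 and 145, centring on the median gene 237 lower, centring on the macrophage core 3380 and 36, and other-cell genes left out with equal totals 900 and 113. A pseudocount of 100 gave 319 higher, the 6000 highest genes 159 higher and no filter 1149 higher. Limits of 1.5-fold gave 862 and 2148, and of 4-fold 174 and 40. The plasma cell median, 1.14, was -0.55 among the 6000 highest genes, a set that fewer of its members enter. Relative to the core, Ftl1, C1qb and Nlrp3, more than 2-fold lower as deposited, stood at 0.0270, 0.0442 and 0.0421. Interferon-induced, lipid-associated and chemokine medians were below 0 under each of the 6 other scalings. With equal totals, 2 of 18 classical activation, 2 of 22 immediate early and heat shock and 3 of 14 interferon-gamma genes were at least 2-fold lower. Of 16 MHC class I genes 0 were, where 1.45% of all genes were. No replicate could be left out, because each day is 1 library, and differences between mice, pools and sequencing runs cannot be told apart from the days. No paired analysis was possible because each day has 1 library. Depth limits low genes: at 3 reads a ratio is known only within its counting interval.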
